A study of Mus musculus with 2 samples.

Results

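The cells described here were dividing thymocytes that carried messenger RNA of Helios (Ikzf2), a zinc-finger factor of the Ikaros family that thymocytes switch on after strong signals through the T cell antigen receptor (TCR). Of 16179 cell barcodes in the deposited matrix, 142 were chosen as cycling Helios+ cells. A cell entered the gate if it had at least 1000 genes, at most 5% mitochondrial UMIs (unique molecular identifiers, each standing for 1 captured transcript), and at least 80% of at least 10 hashtag UMIs on 1 of the hashtag rows 11, 13, 15 and 17. It also had at least 2 UMIs of Ikzf2, at least 1 of the CD3 chains Cd3d, Cd3e and Cd3g together, and none of Rag1, Rag2, Arpp21, Cd79a or Lyz2, which mark thymocytes that still recombine their receptors, B cells and myeloid cells. Of the 800 gated cells, the 142 with at least 5 summed UMIs of Mki67, Top2a, Birc5, Ube2c and Cdk1 were taken as cycling, and the 557 with a sum of 0 or 1 served as the comparison. The other 101 cells, with sums of 2 to 4, were intermediate.

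The study sorted invariant natural killer T (iNKT) cells from the thymus of Ctrl mice and of T-KO mice, in which a Cre recombinase driven by the proximal Lck promoter deletes Kidins220, a scaffold protein that binds the TCR, in T lineage cells. Stage 0 cells were sorted as TCRβ+ CD24+ NK1.1- cells stained by a CD1d tetramer (CD1dt), and stage 3 cells as TCRβ+ NK1.1+ CD44+ CD24- cells stained by it. Each stage of each genotype was sorted as 2 populations, each pooled from 4 mice, and all were marked with hashtag antibodies and run as 1 droplet library of RNA read from the 5′ end with 1 library of hashtags. The methods state that the CD1d tetramer stained poorly in this sort. The labels name populations by hashtags numbered from 1, rows that held 33 to 12255 UMIs up to hashtag 7, while rows 11 to 18 held 1352182 to 7856856 each, and no source used here pairs the rows 11 to 18 with a stage or a genotype, so Ctrl and T-KO could not be compared and each row is given as a single population.

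The stage was checked only by transcripts of its surface markers. Levels are given as CPM, the UMIs of a gene as a part of all UMIs of the pooled cells, scaled to a fixed total. Over all assigned cells, Cd24a was at 313.1 to 365.1 CPM in rows 11, 13, 15 and 17 and at 23.3 to 34.19 CPM in the other 4 rows in use. Klrb1c, which encodes NK1.1, was at 4.781 to 6.569 CPM in the former and at 328.5 to 444.1 CPM in the latter. The transcript that defines iNKT cells, the variable segment Trav11 of their invariant TCRα chain, counted with its copies Trav11d and Trav11n, was not found among the 1075 TRAV segment UMIs of the cycling cells. This allows a share of up to 0.343% of UMIs by the exact interval, which takes UMIs as independent. UMIs of 1 cell are not independent, and these came from 120 members, so the limit on the share of cells is looser. The cells are therefore called by their rule, cycling Helios+ cells, and not iNKT cells.

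A dividing cell copies its DNA in S phase and separates the copies in mitosis. Cyclins D and E with their kinases release E2F factors, which drive genes of the replication machinery, while cyclins A and B with CDK1 carry the cell into mitosis, where FOXM1 and B-MYB with the MuvB complex drive genes of the spindle, the kinetochore and cytokinesis. In the thymus, most division takes place before the αβ TCR is complete, and cells that are being selected on it are mainly at rest. Helios, with NR4A1, EGR2 and PD-1 (Pdcd1), belongs to the genes that such cells express after TCR signals.

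The cycling share lay between 16.52% and 19.77% in the 4 populations. It was 17.24% in row 11 (20 of 116 gated cells, 95% exact binomial interval 10.86 to 25.36), 16.52% in row 13 (56 of 339, 12.73 to 20.91), 18.5% in row 15 (32 of 173, 13.01 to 25.1) and 19.77% in row 17 (34 of 172, 14.1 to 26.51). All 4 intervals overlapped. Over the 4 rows it was 17.75% (15.16 to 20.58). The gated cells themselves were 9.864% of the assigned cells in row 11 and 29.5% in row 17, a wider range than that of the cycling share within the gate. All intervals given here cover counting error only.

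Most members lay far above the limit of the rule. The 5 summed genes gave a median of 28.5 UMIs per member and a range of 5 to 129, and 121 of 142 members had at least 10. Just inside the limit 8 cells had a sum of 5, and just outside it 15 cells had a sum of 4. All 5 genes were seen together in 86 members and only 1 of them in 1 member. These values chose the cells and are given as a description. Mki67, the Ki-67 antigen on mitotic chromosomes, was at 565.7, 567.2, 898.7 and 669.3 CPM in the cycling cells of rows 11, 13, 15 and 17. Birc5 (survivin, a subunit of the chromosomal passenger complex) was at 409.4, 353, 339.8 and 387.5 CPM.

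**Figure D1:**
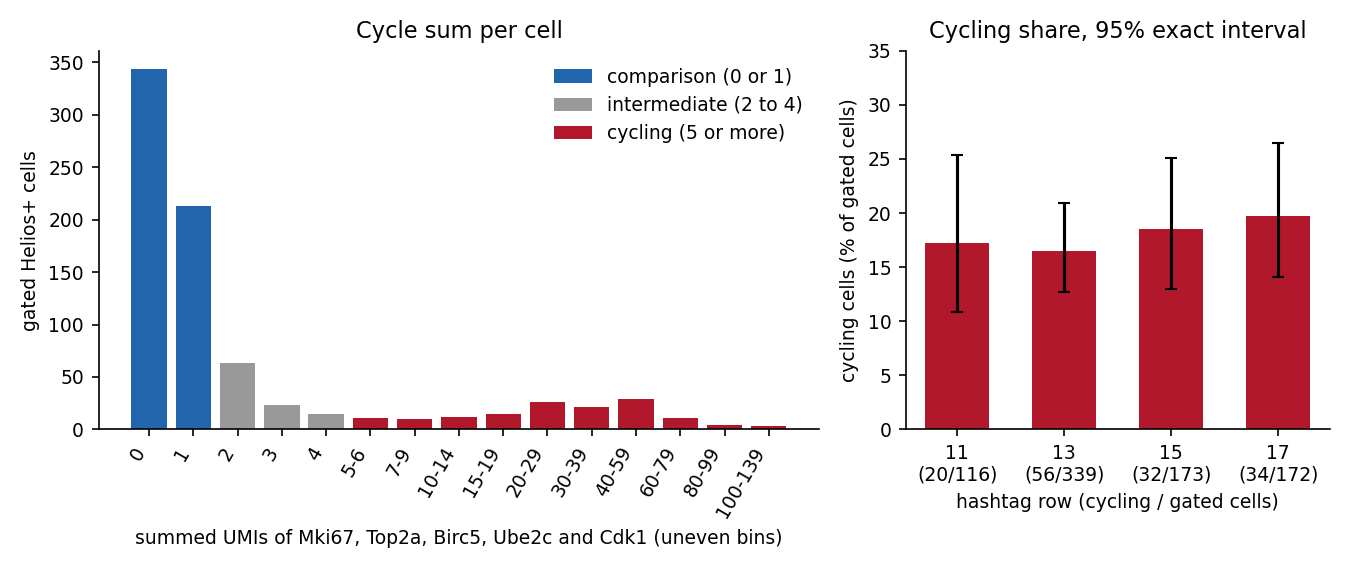
Left, number of gated Helios+ cells by summed UMIs of Mki67, Top2a, Birc5, Ube2c and Cdk1, in bins of uneven width; right, cycling cells as a percent of gated cells in hashtag rows 11, 13, 15 and 17, with 95% exact binomial intervals. The 344 cells at 0 and 213 cells at 1 were the comparison cells, and the 4 shares lay between 16.52% and 19.77%.

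Cycling cells were deeper than comparison cells, with a median of 12065.5 against 4250 UMIs and of 3800 against 2027 genes per cell. Row medians of the cycling cells ran from 11468 to 12513.5 UMIs. With every cell thinned to 2000 UMIs, the median number of genes was 1177 in cycling cells and 1176 in comparison cells, and the share of cells that reached a sum of 5 was 10.38%, with rows from 9.036% to 11.43%. Because depth differed, each ratio below was also computed against the 69 comparison cells whose depth lay between the 25th and 75th percentile of the members, called comparison cells of matched depth. All 142 members, with 2863 to 34418 UMIs, were kept, so only the comparison was narrowed. The 69 cells may also differ in state from the other comparison cells, for example in replication transcripts. Ratios against them therefore do not isolate depth. Cells with at least 2 UMIs on each of several TRBV segments, as 2 cells in 1 droplet could give, made up 23.24% of cycling cells (16.57 to 31.06) and 18.49% of comparison cells (15.35 to 21.97). Droplets with cells of different hashtags were reduced by the 80% rule, which still allows some hashtag UMIs from other rows, and doublets within a hashtag could not be told apart from single cells. The part of depth and doublets in the ratios was not tested beyond these values.

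Levels were compared as the log2 ratio of pooled CPM, cycling over comparison, with a pseudocount of 10 CPM that pulls the ratios of low genes towards 0. Of 8465 genes with a mean of at least 10 CPM, 349 (4.12%) were at least 2-fold higher in cycling cells and 105 (1.24%) at least 2-fold lower, with a median ratio of -0.09. The values in all 4 cycling populations lay above all 4 comparison values for 895 genes (10.6%) and below them for 1082 genes (12.8%). Since the members were chosen by 5 genes of division, this contrast describes them and tests nothing.

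Among genes that act in mitosis, nearly all listed members were higher in the cycling cells. That was the case for 15 of 16 mitotic kinases and cyclins, 15 of 15 genes of the chromosomal passenger complex and spindle checkpoint, 18 of 18 kinesins and cytokinesis genes and 12 of 12 centromere genes, with median log2 ratios of 2.16, 2.57, 2.50 and 1.58. Of the condensin and cohesin genes 7 of 12 were at least 2-fold higher, with Smc4, which holds condensin together, at 609 against 500.4 CPM. Of the anaphase-promoting complex and its partners 6 of 11 were. The level of the core subunits Cdc16 and Cdc23 was close in both groups (44.12 against 42.42 and 49.35 against 44.67 CPM), while the activator Cdc20 was at 188.7 against 15.39 CPM.

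Cyclin B1 (Ccnb1), the partner of CDK1 at mitotic entry, was at 115.4, 96.54, 128.8 and 110.4 CPM in the cycling cells of rows 11, 13, 15 and 17 and at 16.1, 8.811, 6.483 and 7.415 CPM in their comparison cells. Polo-like kinase 1 (Plk1) was at 178.6, 164.4, 208.2 and 176.1 CPM against 2.684, 9.692, 4.862 and 3.708 CPM. For both genes the lowest cycling population lay well above the highest comparison population. Pooled over rows, Ccnb1 had 109.7 CPM (exact Poisson 95% interval 94.64 to 126.5) in cycling cells, and its log2 ratio was 2.65, with 2.66 against comparison cells of matched depth. Aurora B kinase (Aurkb), which corrects wrong spindle attachments, was at 137 against 6.006 CPM, and its partner Incenp at 294.4 against 37.16 CPM. Kif2c, a kinesin that takes microtubules apart at the centromere, gave 131 UMIs in cycling cells and 1 UMI in comparison cells, that is 76.06 CPM (63.59 to 90.25) against 0.375 CPM (0.0095 to 2.09). Cenpf, a kinetochore protein, was at 207.8 against 7.132 CPM.

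Genes of the replication machinery were higher too, by less. The rule genes were higher in members rich in mitotic transcripts, as described further on. The rule may thus weight the contrast towards mitosis, which was not tested. Of 40 DNA replication genes 25 were at least 2-fold higher and none 2-fold lower, and the median log2 ratio was 1.29. For 35 of 40 the 4 cycling populations lay above the 4 comparison populations. Among all genes compared, 4.12% were 2-fold higher, 1.24% were 2-fold lower and 10.6% lay above in all populations. The enzymes that make nucleotides for DNA stood out by size. Rrm2, the regulated subunit of ribonucleotide reductase, was at 297.7, 322.8, 408.3 and 446.2 CPM in the cycling populations and at 16.1, 20.27, 17.83 and 14.83 CPM in the comparison populations, a log2 ratio of 3.75. Thymidine kinase 1 (Tk1) was at 167.2 against 9.76 CPM and thymidylate synthase (Tyms) at 188.7 against 25.53 CPM. The subunits of the MCM helicase, which is loaded on origins in G1, differed less: Mcm5 was at 163.7, 220.2, 219.2 and 232.5 CPM against 88.57, 89.87, 113.4 and 59.32 CPM, a log2 ratio of 1.18.

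The ratios of replication genes depended on which cells they were set against. Against comparison cells of matched depth, 17 of the 25 replication genes were still at least 2-fold higher and 8 were not (Chaf1a, Dnmt1, Dut, Mcm5, Pcna, Prim1, Rfc3 and Slbp), and the median of the list was 0.90. Of the mitotic kinases and cyclins 14 of 15 were still higher, Bora being the exception at 0.84, as were all 15 passenger and checkpoint, 18 kinesin and cytokinesis and 12 centromere genes. The log2 ratios of Mcm2, Mcm3, Mcm5 and Mcm6 were -0.22, 0.06, 0.35 and -0.38, instead of 0.74, 0.96, 1.18 and 0.26, whereas those of Rrm2 and Plk1 were 4.44 and 3.71. The 557 comparison cells were thus not free of replication transcripts. Summed over the 40 genes, 24 of them (4.309%) reached the median level of the members, 5642 CPM, as did 16 of the 101 intermediate cells (15.84%).

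**Figure D2:**
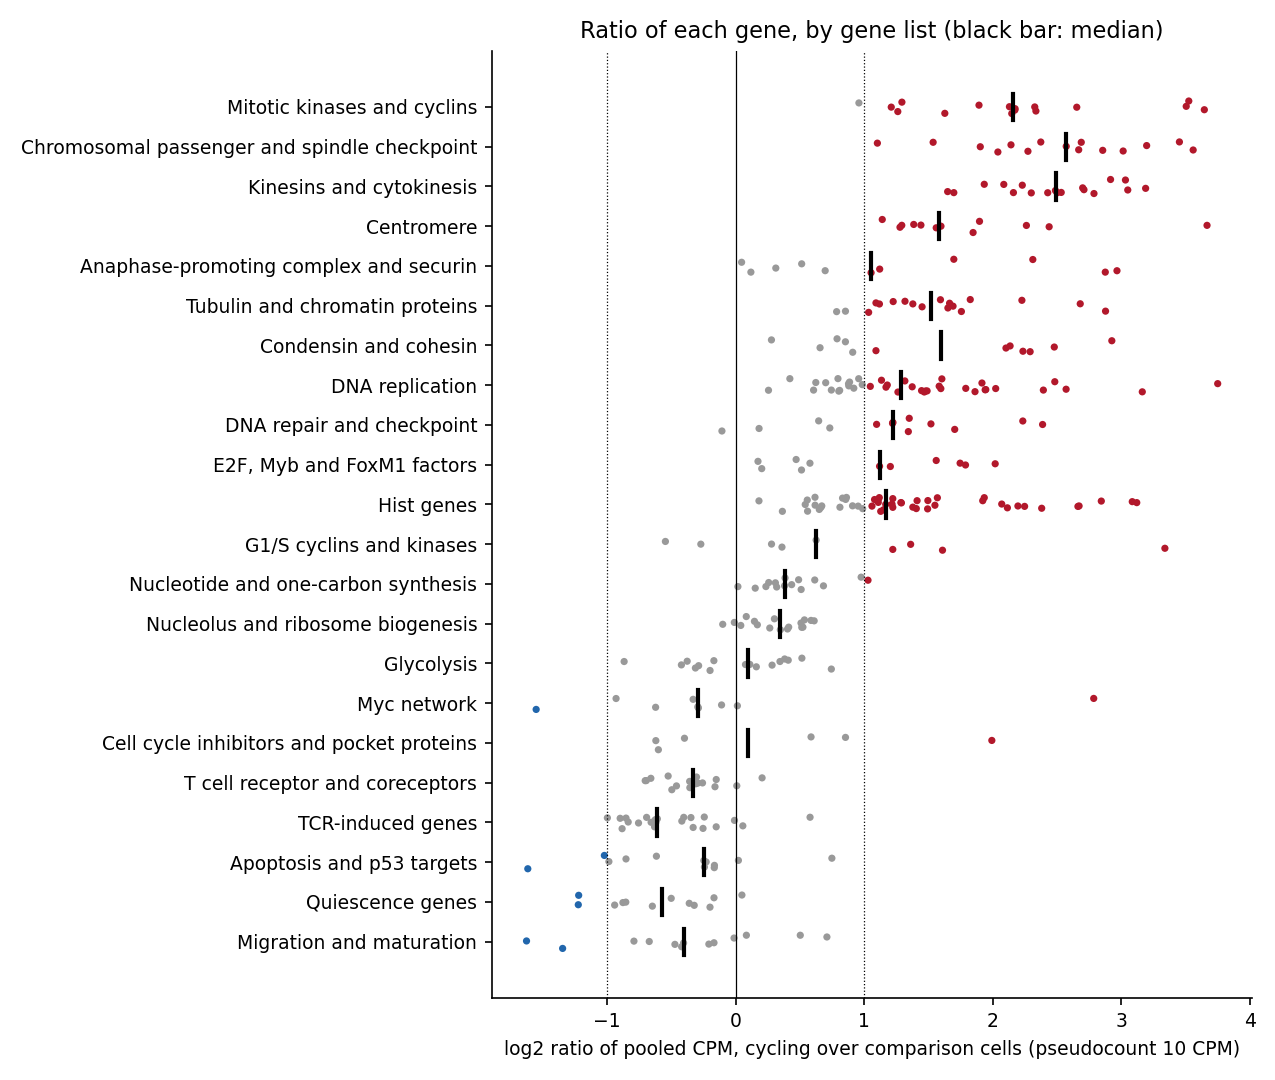
Each point is a gene, placed by its log2 ratio of pooled CPM in the 142 cycling over the 557 comparison cells (pseudocount 10 CPM), one line per gene list, with the median as a black bar; red and blue points are at least 2-fold higher or lower. All tested genes of the chromosomal passenger, kinesin and centromere lists lay above a ratio of 1, and no TCR-induced gene did.

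Promoter letters are shown for both groups of genes because replication and mitotic transcripts also varied in balance within the members, as described further on. In RefSeq promoter windows of the mouse genome (GRCm38.p6, 250 bases before to 50 after each annotated start), both strands were searched for TTTGAA, the core of the cell cycle homology region at which the MuvB complex binds, for CCAAT, the box of NF-Y, and for TTTCCCGC, TTTGGCGC or TTTCGCGC, E2F letters. Matches of different motifs may overlap, and each was counted. Of 72 genes in the mitotic lists 62 had a window, of which 36 (58.06%) held TTTGAA, 46 (74.19%) CCAAT and 4 (6.452%) E2F letters. Of 40 DNA replication genes 32 had a window, of which 5 (15.62%), 20 (62.5%) and 14 (43.75%) did. Among the genes compared, 6766 of 8465 had a window, with shares of 14.37%, 43.22% and 4.981%, and over all 32851 promoter windows the shares were 17.89%, 37.41% and 1.845%. A match describes these letters and shows neither a bound site nor a cause.

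Windows of 30 bases around a match are printed 5′ to 3′ on the strand of the gene, with the match in capitals. Only genes with a match are shown. Of the 5 rule genes 4 held TTTGAA and Birc5 did not, nor did Ccnb1, and Pcna and Rrm2 held no E2F letters. The first 6 windows are of rule genes and mitotic genes and hold the cell cycle homology letters (TTCAAA is TTTGAA on the opposite strand). The last 4 are of MCM subunits and hold E2F letters.
Mki67 (chr7:135716460-135716489, minus strand): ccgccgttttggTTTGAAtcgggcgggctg
Top2a (chr11:99024195-99024224, minus strand): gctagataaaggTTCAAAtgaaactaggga
Ube2c (chr2:164769888-164769917, plus strand): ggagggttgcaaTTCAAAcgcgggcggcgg
Cdk1 (chr10:69352910-69352939, minus strand): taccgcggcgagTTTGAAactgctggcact
Ccnb2 (chr9:70421533-70421562, minus strand): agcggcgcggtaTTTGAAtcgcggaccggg
Plk1 (chr7:122159453-122159482, plus strand): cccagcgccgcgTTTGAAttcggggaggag
Mcm3 (chr1:20820275-20820304, minus strand): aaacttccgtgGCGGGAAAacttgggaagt
Mcm5 (chr8:75109345-75109374, plus strand): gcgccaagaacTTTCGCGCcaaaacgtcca
Mcm6 (chr1:128359734-128359763, minus strand): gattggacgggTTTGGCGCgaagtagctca
Mcm7 (chr5:138171849-138171878, minus strand): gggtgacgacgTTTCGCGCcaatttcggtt

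The factors named after these motifs were also listed. Of 11 tested E2F, Myb and FoxM1 factors and MuvB subunits 6 were at least 2-fold higher. E2f1, which activates replication genes, was at 59.54, 55.81, 52.06 and 44.62 CPM in the cycling populations and at 21.47, 21.15, 8.103 and 16.68 CPM in the comparison populations. At matched depth 4 of the 6 were still 2-fold higher, while E2f1 and Tfdp1, a partner of E2F proteins, had log2 ratios of 0.66 and 0.37 instead of 1.20 and 1.12. E2f8, a repressor that acts later in S phase, was at 53.41 against 5.631 CPM, Foxm1 at 48.77 against 7.508 CPM and Mybl2 (B-MYB) at 38.32 against 6.381 CPM. The MuvB subunits Lin9, Lin52 and Lin54 had log2 ratios of 0.47, 0.17 and 0.58, with overlapping populations.

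Cyclins split by type. Cyclin E1 (Ccne1) was at 55.82, 28.66, 41.1 and 32.88 CPM in the cycling populations against 5.368, 4.406, 6.483 and 5.561 CPM, and cyclin A2 (Ccna2) at 220.6 against 12.76 CPM. The D cyclins link growth signals to CDK4 and CDK6. Ccnd1 was low, at 6.967 against 3.003 CPM, with 37.21 CPM in the cycling cells of row 11 and 0 to 2.74 CPM in those of the other rows. Ccnd2 was at 137.7, 184, 219.2 and 159.7 CPM in cycling cells and at 225.5, 289, 260.9 and 246.5 CPM in comparison cells, so that every cycling population lay below every comparison population, and its log2 ratio was -0.55, or -0.83 at matched depth. Ccnd3 was at 206.7 against 251.5 CPM, with overlapping populations and ratios of -0.27 and 0.33 at matched depth.

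Of 6 tested inhibitors and pocket proteins, 1 was at least 2-fold higher. This was Cdkn2c (p18, an inhibitor of CDK4 and CDK6), at 119.1, 61.85, 95.9 and 115.1 CPM in cycling and 18.79, 8.811, 24.31 and 16.68 CPM in comparison cells. Cdkn1b (p27), which holds resting cells in G1, was at 78.96 against 125 CPM, a log2 ratio of -0.60 that was 0.10 at matched depth. In the Myc network, in which MYC and MXD proteins compete for the partner MAX, Myc itself overlapped between the groups (152.7 against 189.6 CPM, log2 ratio -0.29). The MXD members parted: Mxd3 was at 66.99, 66.37, 93.16 and 65.76 CPM against 0, 2.643, 1.621 and 1.854 CPM, whereas Mxd4 was at 55.82, 72.41, 49.32 and 91.59 CPM against 185.2, 219.4, 251.2 and 228 CPM. At matched depth their log2 ratios were 2.50 and -1.20. None of 17 nucleolar and ribosome biogenesis genes and none of 16 glycolysis genes differed by 2-fold, with median log2 ratios of 0.35 and 0.09. Few of all genes compared did so either, 4.12% being higher and 1.24% lower.

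**Figure D3:**
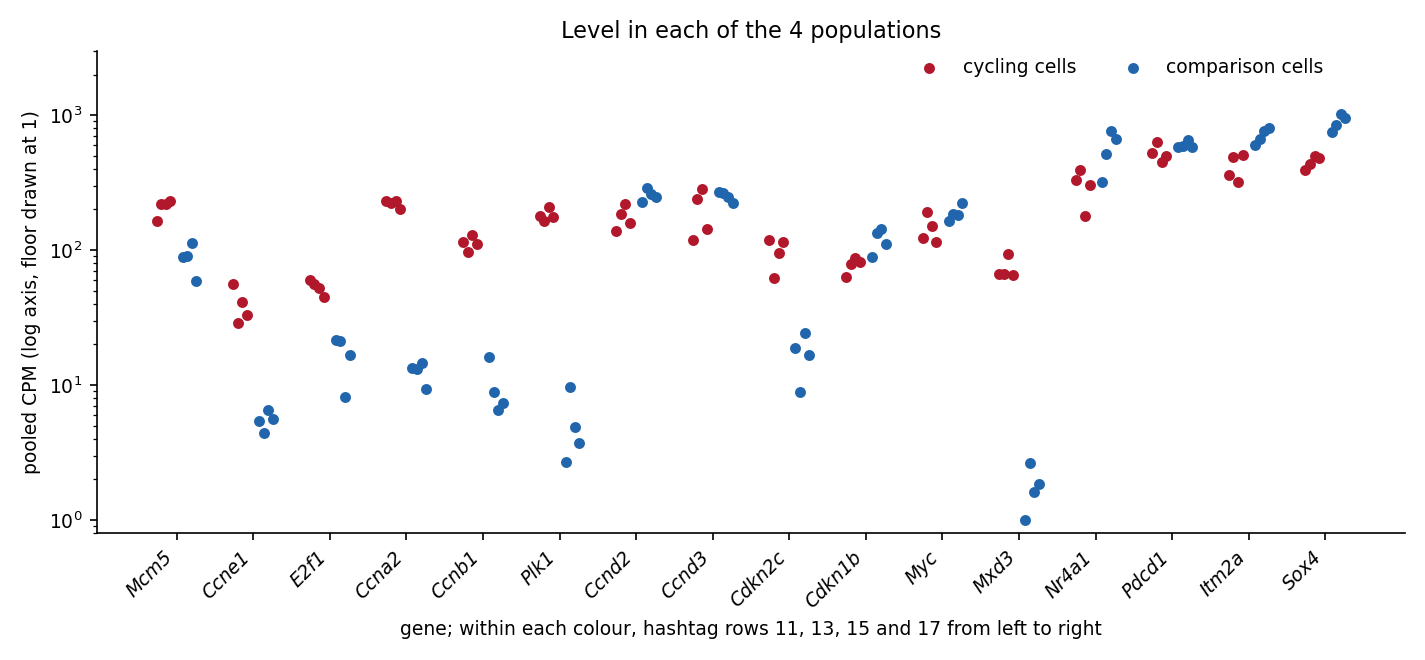
Pooled CPM (log axis; values under 1 are drawn at 1) of 16 genes in the cycling (red) and comparison (blue) cells of hashtag rows 11, 13, 15 and 17, from left to right within each colour. Ccnb1 and Plk1 lay apart in all 4 populations, Ccnd3, Myc and Pdcd1 overlapped, and Ccnd2, Itm2a and Sox4 were lower in every cycling population than in every comparison population.

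Histone and chromatin genes were mostly higher. Of 67 genes named Hist, 49 had enough UMIs and 32 of these were at least 2-fold higher, with a median log2 ratio of 1.17. Their summed level was 8295 to 9838 CPM over the cycling populations and 2465 to 3050 CPM over the comparison populations. Hist1h2ao and Hist1h2ap were at 978.9 against 103.6 and 623.5 against 64.56 CPM, though near-identical copies in this cluster can share reads and single copies are uncertain. Of the listed tubulin and chromatin genes 16 of 18 were at least 2-fold higher, among them Hmgb2 (1673 against 218.8 CPM), which bends DNA, and the tubulin Tuba1b (2732 against 575.1 CPM). Outside the lists, the highest ratios belonged to genes of the same machinery, led by Pclaf, a partner of PCNA, at 689.2 against 29.65 CPM, Cdca3 at 211.9 against 9.76 CPM, Ckap2l at 137 against 3.754 CPM and Nusap1, which bundles spindle microtubules, at 169.5 against 10.51 CPM.

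Within the members, the balance of replication and mitotic transcripts varied from cell to cell. At least 10 mitotic UMIs were found in all 142 members and at least 10 replication UMIs in 130. In the shallower comparison cells these counts were 158 and 155 of 557. With the 40 replication genes set against 60 mitotic genes other than the rule genes, 56 members had more replication UMIs, 85 more mitotic UMIs and 1 the same number. The mitotic share of these UMIs ran from 17.61% to 95.12% per cell, with a median of 62.16%. Members with more replication UMIs were 5 of 20 in row 11, 22 of 56 in row 13, 13 of 32 in row 15 and 16 of 34 in row 17. Members had a median of 58 replication and 82 mitotic UMIs, comparison cells 6 and 7, without regard to depth. As pooled CPM the replication genes were at 5875 against 2129 and the mitotic genes at 8248 against 1658.

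The members were then ordered by mitotic share and cut into groups of 48, 47 and 47 cells with a median of 11353, 13346 and 9845 UMIs. The gene levels below include genes that made the order and are descriptions. E2f1 was at 139.4, 17.95 and 3.988 CPM from the group of low to that of high mitotic share, and Ccne1 at 74.22, 28.42 and 5.982 CPM. Ccnb1 went the other way, with 19.91, 80.78 and 247.3 CPM, as did Ube2c, which tags cyclin B for destruction, with 112.2, 846.7 and 1823 CPM. All 5 rule genes were higher in the group of high than in that of low mitotic share, among them Mki67 (907.3 against 430.8 CPM). Choosing members by these genes may favour mitotic cells, and its part in the counts of 56 and 85 members was not tested. Ccna2 was at 162.9, 239.4 and 259.2 CPM. Helios, which did not enter the order, was at 776.5, 771.9 and 881.3 CPM, and Tnfrsf9 (4-1BB) at 202.7, 225.9 and 201.4 CPM. Myc was at 159.3, 196 and 87.74 CPM.

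**Figure D4:**
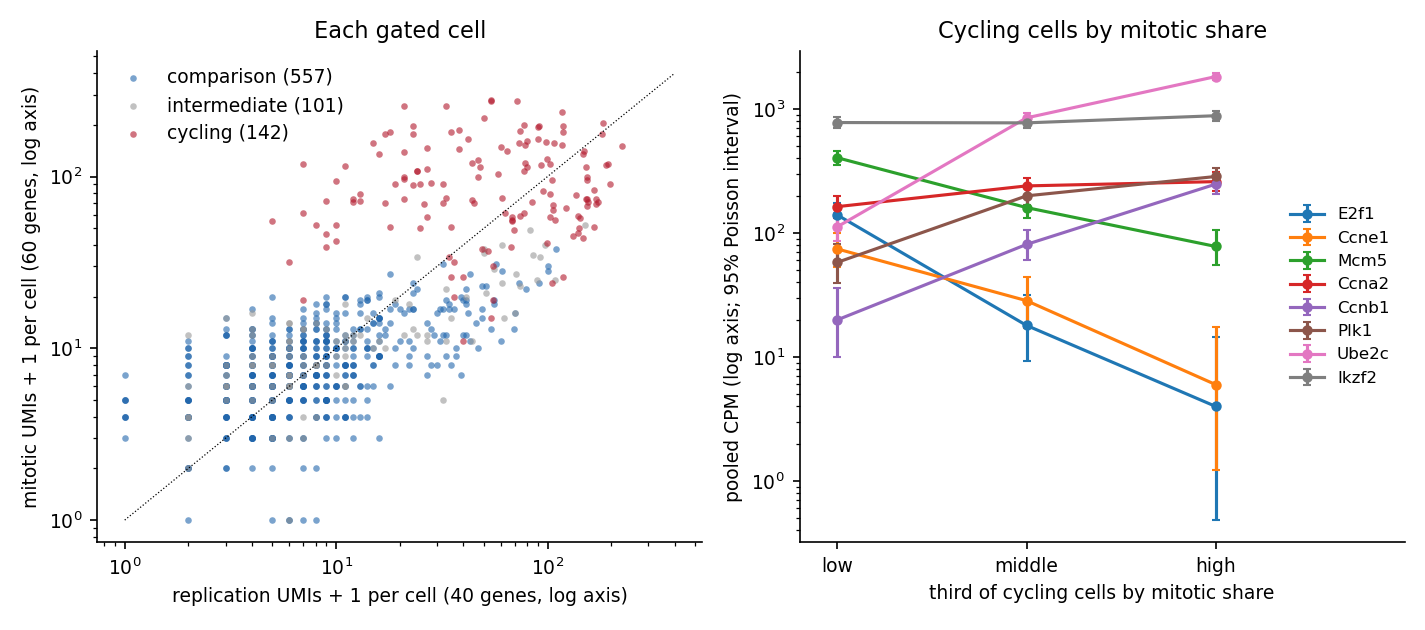
Left, each gated cell by its replication UMIs (40 genes) and mitotic UMIs (60 genes), each plus 1 on log axes, with equality dotted; right, pooled CPM (log axis, 95% Poisson intervals) of 8 genes in cycling cells cut into 3 groups by mitotic share. Cycling cells fell on both sides of the line (56 with more replication UMIs, 85 with more mitotic UMIs), E2f1 and Ccne1 were highest in the low group and Ccnb1 and Ube2c in the high group.

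Genes that TCR signals switch on were present in the dividing cells, with log2 ratios over comparison cells from -0.999 to 0.579. None of 22 tested TCR-induced genes was at least 2-fold higher or lower. Over all genes compared these shares were also small, 4.12% and 1.24%, so the count by itself does not set the list apart. The median log2 ratio of the list was -0.62, and 6 of 22 lay below the comparison in all populations, against 12.8% of all genes. Pdcd1 was at 524.7, 629, 452.1 and 500.2 CPM in cycling cells against 585.1, 593.9, 658 and 580.2 CPM, and 124 of 142 members had a UMI of it. Nr4a1 (Nur77), an early response gene of the TCR, was at 331.2, 395.2, 178.1 and 305.3 CPM against 322.1, 511.9, 760.1 and 665.5 CPM. The cycling populations were lower in rows 13, 15 and 17 and not in row 11, and the pooled log2 ratio was -0.84, or -0.96 at matched depth. Its UMIs were seen in 70 of 142 members (49.3%) and 287 of 557 comparison cells (51.53%), and after thinning to 2000 UMIs in 30.99% and 40.19%. Tnfrsf9 was at 211.3 against 327.7 CPM. Egr1 (192.8 against 194.1 CPM) and Cd69 (120.2 against 115.2 CPM) overlapped.

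The 8 tested marker genes of stage 0 iNKT cells included Helios, which the rule used. Of the 8, 4 lay below the comparison in all populations, as did 12.8% of all genes compared, and none of them by 2-fold. Only Zbtb16 was at least 2-fold higher, as were 4.12% of all genes. The transcription factor Sox4 was at 394.5, 436, 498.7 and 483.8 CPM against 751.5, 843.2, 1019 and 956.5 CPM, and Itm2a at 361, 487.2, 317.8 and 502.6 CPM against 598.5, 665.2, 768.2 and 802.7 CPM. Neither gene overlapped between the groups, and the log2 ratios were -0.96 and -0.69, or -0.64 and -1.22 at matched depth. Helios was at 805.3 against 1498 CPM, but the rule asked for 2 UMIs of it, which is a higher level in a shallow cell than in a deep one. Aiolos (Ikzf3), the family member named in the study, was at 167.5, 250.4, 263 and 183.2 CPM against 343.6, 370.1, 419.7 and 407.8 CPM, a log2 ratio of -0.76, or -0.59 at matched depth.

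Zbtb16, which encodes PLZF, the factor that directs innate-like T cells such as iNKT cells, was higher in the cycling cells. It was at 52.1, 25.64, 46.58 and 16.44 CPM in the cycling populations and at 16.1, 6.168, 6.483 and 1.854 CPM in the comparison populations. The lowest cycling value exceeded the highest comparison value by a small margin, with 16.44 against 16.1 CPM. A UMI was found in 23 of 142 members (16.2%, 10.55 to 23.31) and 13 of 557 comparison cells (2.334%, 1.248 to 3.958). After thinning to 2000 UMIs these shares were 4.225% (1.566 to 8.97) and 1.346% (0.543 to 2.75). The intervals then overlapped, and at matched depth the log2 ratio was 0.84 instead of 1.32.

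Transcripts of the TCRδ chain were also seen in more of the cycling cells, which were deeper. A UMI of Trdc, its constant segment, or of a TRDV segment was found in 57 of 142 members (40.14%, 32.01 to 48.69) and 100 of 557 comparison cells (17.95%, 14.85 to 21.4). At least 5 such UMIs were found in 28 members (19.72%) and 17 comparison cells (3.052%). Of those 28 members, 24 also had TRBV UMIs and 4 had none, and 136 of all 142 members had a TRBV UMI. Trdc was at 174.9, 79.95, 68.5 and 51.67 CPM against 34.89, 29.96, 40.52 and 9.269 CPM, a log2 ratio of 1.29 that was 1.06 at matched depth. After thinning to 2000 UMIs, Trdc was seen in 10.56% of members (6.034 to 16.82) and 4.808% of comparison cells (3.135 to 7.016), with overlapping intervals. The γ constant segments overlapped between the groups: Tcrg-C1 was at 19.16 against 13.89 CPM and Tcrg-C4 at 37.74 against 18.39 CPM. Zbtb16 UMIs were about as frequent in members with TCRδ transcripts (10 of 57) as in those without (13 of 85). Without cells that had a Trdc or TRDV UMI the cycling share was 13.67%.

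The β chains were mixed. The most frequent TRBV segment of a member took 21 different forms over 136 members. Trbv16 took 16.87% of TRBV UMIs in cycling cells and 6.973% in comparison cells, with 23.77% and 23.65% in the cycling cells of rows 11 and 13 and 10.3% and 7.084% in those of rows 15 and 17. UMIs of 1 segment in 1 cell are not independent, so few cells can set such a share. The cycling cells of rows 12, 14, 16 and 18, in contrast, had Trav11 or its copies in 19 of 103 TRAV UMIs (18.45%, 11.49 to 27.3). This interval, too, takes UMIs as independent and is too narrow for cells. Their leading TRBV segments were Trbv13-2 (48.72%) and Trbv13-1 (24.79%), β segments known to be frequent in iNKT cells.

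Markers of other cells were checked in the members. Among double-positive thymocyte markers, Dntt (terminal transferase) was at 11.16, 89, 82.2 and 28.18 CPM in the cycling populations and at 45.63, 27.31, 25.93 and 40.78 CPM in the comparison populations, with 4 or more UMIs in 9 members and in 0 of 557 comparison cells (up to 0.66% by the exact interval). Rag1, Rag2 and Arpp21 were at 0 by the rule, and Cd4, Cd8a and Cd8b1 were at 11.03, 21.48 and 15.1 CPM against 13.51, 41.29 and 29.65 CPM. At matched depth the log2 ratios of Cd4, Cd8a and Cd8b1 were 0.40, 0.03 and 0.41, instead of -0.16, -0.70 and -0.66, that of Dntt was 1.42 instead of 0.74, and that of Ccr9, a chemokine receptor, 0.88 instead of -0.67. Of 8 myeloid markers, Lyz2 was at 0 by the rule and Csf1r at 0.581 CPM, and 3 of the 4 tested (Cd74, H2-Aa and Cst3) were at least 2-fold higher. Their summed level was 277.6 to 8563 CPM over the cycling populations and 465.1 to 968.3 CPM over the comparison populations. Within the members, 2 cells of row 11 held 87.84% of the Cd74 UMIs, 88.83% of the H2-Aa UMIs and 73.81% of the Cst3 UMIs of all members. Without them and the 1 comparison cell like them, Cd74 was at 84.87 against 193.7 CPM and Cst3 at 184.7 against 220.8 CPM. Of 6 B cell markers, Cd79a was at 0 by the rule, and Ms4a1 was at 1.161 CPM. The 2 tested summed to 110.9 CPM in cycling and 134.4 CPM in comparison cells, and neither differed by 2-fold. B cell transcripts were thus not absent. A UMI of Ighm, an immunoglobulin gene, was found in 57.04% of members and 33.75% of comparison cells, and after thinning in 19.72% and 19.04%. The part of such other cells in the ratios was not tested beyond leaving out cells with many Cd74 and H2-Aa UMIs, or with Trdc, TRDV or Dntt UMIs.

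Genes lower in cycling cells had smaller ratios than those higher, and fewer passed 2-fold at matched depth. Against matched comparison cells, 38 genes in place of 105 were at least 2-fold lower. Btg1, which restrains division, was at 219.6, 184, 148 and 194.9 CPM in cycling cells and at 467, 464.3, 466.7 and 363.3 CPM in comparison cells, a log2 ratio of -1.23, or -0.93 at matched depth. Pik3ip1, a brake on PI3 kinase, was at 8.128 against 32.28 CPM, and Trp53inp1, a target of p53, at 34.83 against 127.6 CPM, with ratios at matched depth of -0.62 and -0.86. Of 12 quiescence genes 2 were at least 2-fold lower, as were 2 of 12 apoptosis and p53 genes. The same held for 2 of 13 migration and maturation genes and for 1.24% of all genes compared. The survival factor Bcl2 was at 87.67 against 183.6 CPM, a log2 ratio of -0.99 that was -0.35 at matched depth.

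For some of the lower genes the ratio was near 0 or above it at matched depth. Cd7 was at 83.6 against 279.3 CPM and Lgals3 at 27.87 against 86.34 CPM, but their log2 ratios of -1.63 and -1.35 were -0.10 and -0.01 at matched depth. Kit, the receptor of stem cell factor, had a ratio of -1.43 that was 0.32 at matched depth. Malat1, a nuclear noncoding RNA, was at 4651 against 10396 CPM, with ratios of -1.16 and -0.09. For the chemokine Ccl5, the gene with the lowest ratio (-2.15, and -0.53 at matched depth), the comparison cells of row 17 were at 309.6 CPM and those of rows 11, 13 and 15 at 48.31, 38.77 and 34.03 CPM, with 11.74 to 14.89 CPM in the cycling populations. Others were at least 2-fold lower also at matched depth: Crybg1 was at 26.71 against 100.2 CPM (-1.59, and -1.15 at matched depth) and H2-Oa at 28.45 against 82.21 CPM (-1.26 and -1.41).

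The members were last set beside cycling cells of other gates, chosen by the same sum of at least 5. Cells of the same rows without an Ikzf2 UMI gave 54 cycling cells of 438 (12.33%, 9.399 to 15.78), cells of the same rows with a UMI of Rag1, Rag2 or Arpp21 gave 764 of 1027 (74.39%, 71.61 to 77.04), and cells of rows 12, 14, 16 and 18 gave 75 of 5006 (1.498%, 1.18 to 1.874). After thinning to 2000 UMIs the shares were 10.38% in the Helios+ gate and 9.485%, 46.67% and 0.856% in those 3 gates. In the thinned cells the Helios+ and Helios-negative intervals overlapped (8.305 to 12.77 and 6.696 to 12.94).

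Among the 24 listed TCR-induced genes, 12 were set side by side across the gates. The share of all genes that were highest in the members was not computed, so a count does not set the list apart. Of the 12, 9 were highest in the members. The other 3 were Irf4 (1.742 CPM in the members, 15.08 CPM in Helios-negative cycling cells), Tnfrsf18 (47.61 CPM, and 90.41 CPM in those of the even rows) and Nfkbid (28.45 CPM, and 37.53 CPM in the even rows). Mcm5 was at 214.2 CPM in the members and at 216.8, 275 and 264.4 CPM in cycling cells of the Helios-negative gate, the Rag or Arpp21 gate and the even rows, and Ccnb1 at 109.7 against 103.7, 176.2 and 75.06 CPM. Pdcd1 was at 543.4 CPM (509 to 579) in the members and at 39.58, 39.08 and 23.88 CPM in the others. Nr4a1 was at 317 against 13.19, 20.62 and 17.06 CPM, and Tnfrsf9 at 211.3 against 1.885, 5.465 and 20.47 CPM. The lowest of the 4 member populations lay at 452.1 CPM for Pdcd1 and 178.1 CPM for Nr4a1.

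D cyclins also differed between the gates. Ccnd2 was at 178.2 CPM in the members, 22.62 CPM in Helios-negative, 43.88 CPM in Rag or Arpp21 and 141.6 CPM in even-row cycling cells, with Ccnd3 at 206.7, 501.4, 619 and 788.1 CPM. Dntt and Ptcra, the surrogate α chain of earlier thymocytes, were at 60.38 and 6.386 CPM in the members and at 733.7 and 96.29 CPM in the Rag or Arpp21 cells. Tbx21 (T-bet) and Klrb1c, at 180.8 and 168.9 CPM in the even-row cycling cells, were at 2.903 and 4.064 CPM in the members. Il2rb, also listed as a marker of stage 3 iNKT1 cells, was not near 0 in the members. It was at 275.8 CPM in them, 690.9 CPM in the even rows, 15.08 CPM in Helios-negative and 10.18 CPM in Rag or Arpp21 cells. Zbtb16 was at 31.93 CPM in the members, between the Helios-negative cells (15.08 CPM, 6.51 to 29.7) and the even rows (54.59 CPM, 37.3 to 77.1), and the interval of the members, 24.1 to 41.6, overlapped both. The gates used Ikzf2 and Rag transcripts, so that genes that vary with these could differ by the choice of cells.

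**Figure D5:**
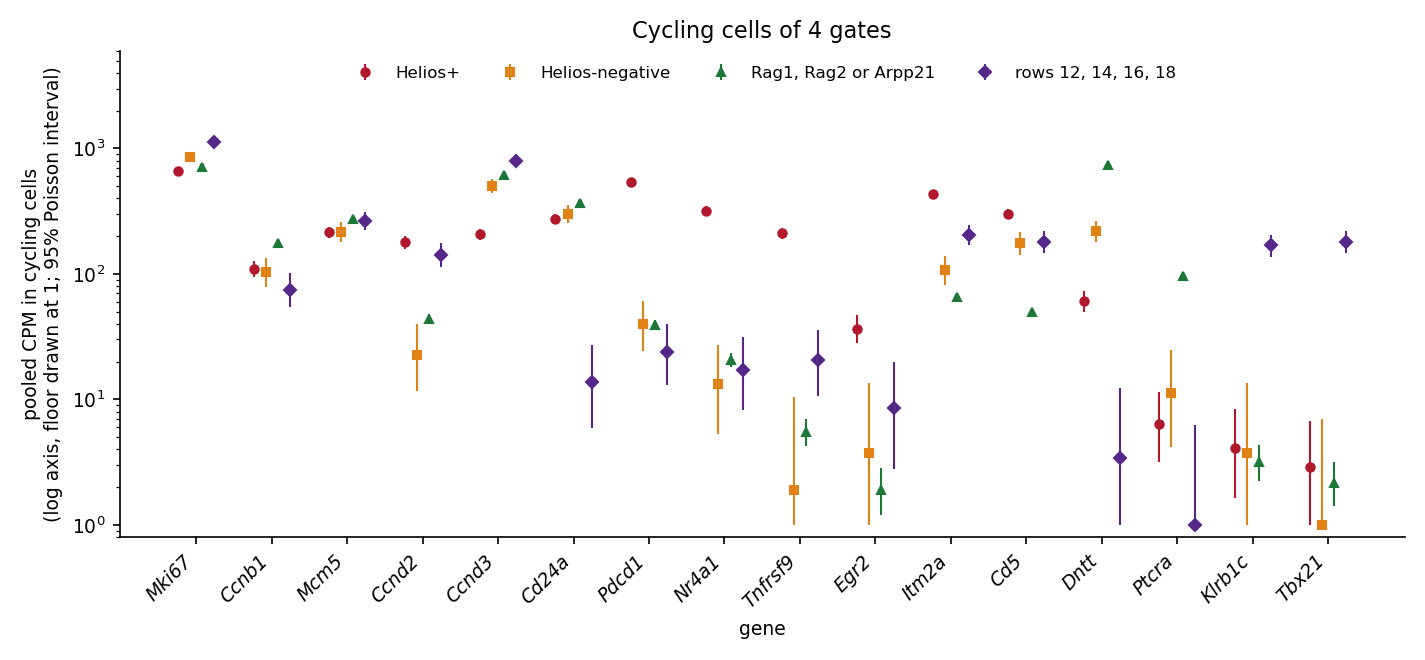
Pooled CPM (log axis; values under 1 drawn at 1) with 95% Poisson intervals of 16 genes in cycling cells of the Helios+ gate (142 cells), the Helios-negative gate (54), the Rag1, Rag2 or Arpp21 gate (764) and hashtag rows 12, 14, 16 and 18 (75). Mcm5 lay between 214.2 and 275 CPM in the 4 gates, while Pdcd1, Nr4a1 and Tnfrsf9 were highest in the Helios+ cells and Dntt and Ptcra in the Rag or Arpp21 cells.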

How the data were processed

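The authors deposited counts, UMIs per gene or hashtag and barcode, that Cell Ranger 6.0.0 made against its supplied mm10 mouse genome (annotation release not stated). They are raw and come before the filters of the study. Of 16179 barcodes (85673127 gene UMIs), 12147 passed the limits on genes and mitochondrial UMIs, and 10007 were assigned to a hashtag row, 4249 of them to rows 11, 13, 15 and 17. Members, comparison and gene lists were chosen with earlier results of these data known.

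UMIs were pooled over cells, scaled to CPM and compared as log2 ratios (Python 3.11.15, numpy 2.4.6, scipy 1.17.1, pandas 2.3.3), with 8522 Gm and 91 ribosomal protein genes left out of the counts of genes. The 4 populations have no group in the labels and share 1 droplet library, so no test was made. Intervals are exact, at 95%. Genes outside the lists were named if among the 20 highest or lowest ratios at a mean of at least 50 CPM with 1 direction in all populations. Scripts were tested on simulated data. Alternatives changed the limits on cells, the depth, the pseudocount and the filter; 3 that left out cells with Cd74 and H2-Aa, Trdc or TRDV, or Dntt UMIs were chosen after seeing the data. Promoters came from RefSeq (GRCm38.p6).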

Additional observations from a re-analysis of the deposited data

Results flagged for a closer look

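UMIs of the hashtag HASH_4, which lies outside the rows that hold the populations, were found in the cycling cells, 141 in all. Of these, 137 lay in 29 of the 32 members of row 15, with at most 11 in a cell, and 4 in 4 members of row 11; the comparison cells of row 15 held 306. No source used here says what this hashtag marked.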

How the results depend on the processing

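The share of cycling cells, 17.75%, was 22.5% with a limit of 3 summed UMIs, 15.12% with a limit of 10, 10.38% in cells thinned to 2000 UMIs, 22% with a hashtag share of at least 95%, 11.43% in cells of at most 4000 genes and 13.67% without cells with a Trdc or TRDV UMI. Leaving out each population in turn gave 17.2% to 18.66%. The 349 genes at least 2-fold higher became 135 with a pseudocount of 50 CPM and 164 with a mean of at least 50 CPM, and 344 to 399 without 1 population. The 105 lower genes became 64 with a limit of 3 summed UMIs, 384 in thinned cells, 38 at matched depth, 369 and 12 with pseudocounts of 1 and 50 CPM, 40 with a mean of at least 50 CPM, and 118 to 166 without 1 population, where 166 was without row 13, which held the most cells; the cause was not tested, beyond fewer genes passing the stricter filter.

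The median log2 ratio of the myeloid markers, 1.03, was -0.86 in cells of at most 4000 genes, -0.12 with 1 UMI of Ikzf2 allowed, -1.07 without row 11 and -0.64 without the cells with many Cd74 and H2-Aa UMIs. Under the same 4 settings H2-Aa was at -1.40, -0.12, -1.67 and -1.03 and Cd74 at -1.56, -0.12, -1.87 and -1.10, and under the settings other than the Ikzf2 limit Cst3 was at -0.32, -0.48 and -0.25. Without each other population in turn the highest values were 2.15 for the myeloid median, 2.40 for Cd74, 2.28 for H2-Aa and 2.02 for Cst3, all without row 13. Kit was at 0.32 at matched depth. Of 782 list medians under the alternatives 19 had the other sign, and of 8600 values of single genes 492 did, in 119 of 430 genes; the sign turned for a median or gene past 2-fold in the 4 and 12 cases given here. The medians of the mitotic kinase, passenger, kinesin and centromere lists stayed positive under all 22 alternatives, from 0.76 to 3.67.

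No paired test was made because the cells were chosen by measured values. Cycling and comparison cells share the 4 populations, whose values are given side by side. Overlap was judged over all populations together and not within each. Low depth per cell limits genes of few UMIs, whose ratios the pseudocount pulls towards 0.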

Other observations

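The intermediate cells, with 2 to 4 summed UMIs of the 5 rule genes, belonged to no comparison above. The 63 cells at 2 had a median of 4189 UMIs, close to the 4210 of the 213 cells at 1, whereas the 23 cells at 3 and the 15 cells at 4 had 7224 and 6624. Mcm3 was at 102.8, 138.9 and 155.1 CPM in cells at 0, 1 and 2, and at 345.6 and 305.2 CPM in those at 3 and 4. The 8 cells at 5 had 332.1 CPM of it. Ccnb2, a mitotic cyclin, was at 9.496, 24.25 and 17.44 CPM in cells at 2, 3 and 4 and at 240.5 CPM in those at 5. Stmn1, which binds tubulin, was at 392.5, 800.4 and 776.2 CPM at 2, 3 and 4. With few cells per sum, these values carry wide counting error.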
